A study of Mus musculus with 6 samples.

Results

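The genes of the mouse major histocompatibility complex (MHC) and of antigen processing were compared between embryonic stem cells (ESCs) and epiblast-like cells (EpiLCs) by polyA RNA-seq. The genes were chosen by symbol: every gene named H2-, together with B2m, Tap1, Tap2, Tapbp, Tapbpl, Psmb8, Psmb9, Psmb10, Psme1, Psme2, Erap1, Ciita and Aire. This gave 57 of the 24736 genes in the table. They were selected from a comparison of these same libraries in which their differences were already known, so the ESC to EpiLC values of these genes are a description and carry no p-value. All libraries came from the XY HM1 TetON ESC line, which carries a doxycycline-inducible system and served as the wild-type (WT) line of the study. The ESCs (3 biological replicates, 0 h) were grown in 10% serum and 1000 U/ml LIF on feeders, which are mitotically inactivated mouse embryonic fibroblasts. The EpiLCs (3 biological replicates, 48 h by their labels) were differentiated in N2/B27 with bFGF at 10 ng/ml and LGK974, an inhibitor of WNT secretion, at 5 µM. For differentiation, feeders were separated by their adhesion to plastic. ESCs on serum and feeders were therefore compared with cells in another medium after that separation, whose completeness was not measured. Cell state, medium and feeders cannot be told apart. Both groups came from 1 line, so the replicates measure the spread between cultures of that line.

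MHC class I molecules are surface complexes of a heavy chain, the light chain β2-microglobulin and a peptide cut from proteins of the cell. The proteasome makes the peptides, the TAP transporter carries them into the endoplasmic reticulum, and tapasin holds empty class I molecules at the transporter until a peptide is bound. Interferon-γ induces many of these genes together, including catalytic subunits that replace those of the standard proteasome to form the immunoproteasome. Pluripotent mouse cells are known for low class I expression at the surface.

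Promoters of class I genes contain binding sites for NF-κB, for interferon regulatory factors (the interferon-stimulated response element, ISRE) and, in the X2 and Y boxes, for the complex that recruits Nlrc5, the class I transactivator. RefSeq windows on GRCm38.p6 (250 bases before to 50 bases after a start site) were given for 42 of the 57 genes, 25 of them tested. The motifs searched on both strands of these windows were the ISRE core (GAAA, any pair of bases, GAAA), a degenerate NF-κB site, the Y box CTGATTGG and the X2 box TGACGC. The ISRE core was found in 3.44% of all 32851 windows, the NF-κB site in 4.16%, the Y box in 4.1% and the X2 box in 7.4%. The windows below are those of the classical heavy chains H2-K1 (chr17:34000298-34000597, minus strand) and H2-D1 (chr17:35262844-35263143, plus strand), of the light chain B2m (chr2:122147437-122147736, plus strand), of the peptidase Erap1 (chr13:74639603-74639902, plus strand), of the transporter gene Tap1 (chr17:34187306-34187605, plus strand), of the immunoproteasome gene Psmb8 (chr17:34197945-34198244, plus strand) and of tapasin, Tapbp (chr17:33919228-33919527, plus strand). They show genes of one route that differed in opposite directions or not beyond the threshold. Each is written along its own gene, with motif matches in capitals.
H2-K1: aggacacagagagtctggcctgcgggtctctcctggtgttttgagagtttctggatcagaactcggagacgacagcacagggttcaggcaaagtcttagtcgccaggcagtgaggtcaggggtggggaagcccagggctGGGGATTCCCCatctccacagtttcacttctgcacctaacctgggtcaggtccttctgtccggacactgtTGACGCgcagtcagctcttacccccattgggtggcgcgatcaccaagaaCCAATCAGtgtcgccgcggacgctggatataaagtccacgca
H2-D1: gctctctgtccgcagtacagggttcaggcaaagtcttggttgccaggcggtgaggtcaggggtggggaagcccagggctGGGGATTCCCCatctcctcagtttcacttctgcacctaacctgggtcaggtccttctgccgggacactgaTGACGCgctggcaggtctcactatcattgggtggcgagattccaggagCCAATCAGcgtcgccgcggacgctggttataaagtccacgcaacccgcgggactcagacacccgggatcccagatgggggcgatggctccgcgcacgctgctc
B2m: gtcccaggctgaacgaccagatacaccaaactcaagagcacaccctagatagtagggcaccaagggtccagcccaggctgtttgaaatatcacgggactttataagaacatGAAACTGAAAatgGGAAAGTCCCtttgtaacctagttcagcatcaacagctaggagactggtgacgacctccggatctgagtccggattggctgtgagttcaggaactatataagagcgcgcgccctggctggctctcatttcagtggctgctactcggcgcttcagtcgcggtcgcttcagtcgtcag
Erap1: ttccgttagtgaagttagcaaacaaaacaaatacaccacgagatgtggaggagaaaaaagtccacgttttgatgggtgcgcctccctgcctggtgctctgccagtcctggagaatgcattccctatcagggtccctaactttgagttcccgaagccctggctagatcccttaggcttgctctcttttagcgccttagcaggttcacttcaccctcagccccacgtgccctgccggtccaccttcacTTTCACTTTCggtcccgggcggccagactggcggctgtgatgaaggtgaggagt
Tap1: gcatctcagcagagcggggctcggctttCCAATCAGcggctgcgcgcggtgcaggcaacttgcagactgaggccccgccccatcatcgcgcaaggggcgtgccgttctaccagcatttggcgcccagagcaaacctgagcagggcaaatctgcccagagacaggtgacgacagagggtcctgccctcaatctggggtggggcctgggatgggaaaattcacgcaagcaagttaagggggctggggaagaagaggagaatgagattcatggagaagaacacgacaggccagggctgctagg
Psmb8: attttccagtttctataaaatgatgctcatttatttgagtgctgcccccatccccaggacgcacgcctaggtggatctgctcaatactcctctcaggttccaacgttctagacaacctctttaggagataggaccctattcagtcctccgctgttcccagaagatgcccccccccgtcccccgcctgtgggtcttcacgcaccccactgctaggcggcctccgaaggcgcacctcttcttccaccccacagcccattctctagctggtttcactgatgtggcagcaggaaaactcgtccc
Tapbp: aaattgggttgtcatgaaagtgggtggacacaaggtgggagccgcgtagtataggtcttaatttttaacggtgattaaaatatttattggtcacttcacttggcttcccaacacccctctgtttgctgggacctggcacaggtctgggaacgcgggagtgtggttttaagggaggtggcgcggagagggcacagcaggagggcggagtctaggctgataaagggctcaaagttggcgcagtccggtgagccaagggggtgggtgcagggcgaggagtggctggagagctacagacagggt
H2-K1 and H2-D1 each contained the NF-κB site, the X2 box and the Y box, in that order. B2m contained the ISRE core followed by the NF-κB site. Erap1 contained the ISRE core across its start site, and Tap1 contained the Y box. No match of the 4 motifs was found in the Psmb8 and Tapbp windows. Among the 25 tested genes with a window, the NF-κB site was found in 8 (5 of the 8 higher in EpiLCs, 0 of the 8 lower and 3 of the other 9). The Y box was found in 9 (5 higher, 1 lower and 3 not called), the X2 box in 5 (3, 1 and 1) and the ISRE core in 4 (0, 2 and 2). The class I heavy chains are near copies of each other, so their windows are not independent, and a match is a description of letters only. The search counted exact matches and no variants. A window without a match, such as that of H2-K1 or H2-D1 for the ISRE core, can still hold a variant of the element.

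Of the 57 genes, 10 had 0 counts in all 6 libraries and 15 more stayed below 1 TPM (a level corrected for transcript length and library size) in the mean of both groups. The former were H2-M1, H2-M10.1, H2-M10.2, H2-M10.3, H2-M10.5, H2-M11, H2-M9, H2-Ea-ps, H2-DMb2 and H2-Ob. The latter were H2-L, H2-M10.4, H2-M10.6, H2-M2, H2-Q9, H2-T10, H2-T23, H2-T24, H2-T3, H2-Aa, H2-Eb1, H2-Eb2, H2-DMb1, H2-Oa and Ciita, and in single libraries they ranged from 0 to 1.96 TPM. The remaining 32 reached 1 TPM in the mean of at least 1 group. A filter on low counts left 34 genes for the test, which a gene expressed in only one of the groups can pass. A gene is called lower or higher in EpiLCs where the Benjamini-Hochberg adjusted p of edgeR's quasi-likelihood test, taken over the 14468 genes that entered it, did not exceed 0.05. In EpiLCs 11 of the 34 genes were called lower and 11 higher, and 12 were not called. Of all genes tested, 22.8% were called lower and 22.6% higher, and since these differences were among those by which the genes were chosen, nothing is read from the counts. The median log2 fold change (EpiLC over ESC) was -0.44 over the 34 genes and 0.00 over all genes tested. The former was -0.18 without ESC replicate 1, -0.27 without ESC replicate 2 and -0.21 with limma on log2(TPM + 1). It was -0.69 over the 20 genes left with at least 10 counts in every library. By role, and as a description only, 8 of the 10 genes that produce, transport and load class I peptides were called lower and 0 higher, and of the 17 tested heavy chain genes 11 were called higher and 2 lower.

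**Figure D1:**
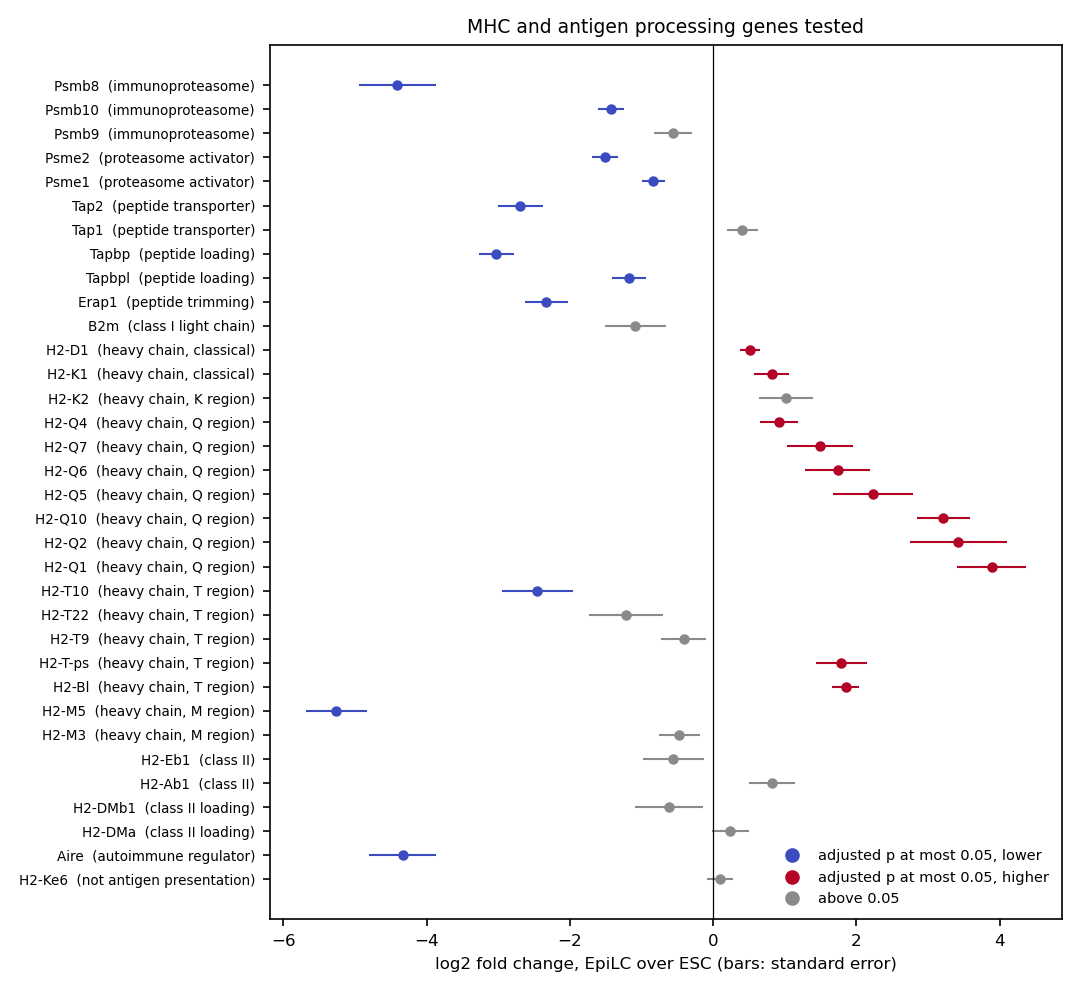
Log2 fold change (EpiLC over ESC, horizontal axis) of each of the 34 tested genes, ordered by role, with bars for the standard error of the fit over 3 ESC and 3 EpiLC libraries. Blue marks genes called lower, red genes called higher and grey genes not called; the processing and loading genes lie mostly left of 0 and the heavy chain genes of the Q region all lie right of it.

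The identity of the libraries was checked with marker genes. All 6 ESC markers (Nanog, Esrrb, Klf4, Zfp42, Tbx3 and Tfcp2l1) were called lower in EpiLCs and all 5 EpiLC markers (Fgf5, Pou3f1, Otx2, Dnmt3b and Sox3) higher, while of the pluripotency genes Pou5f1 was not called and Sox2 was called lower (log2 fold change -1.15, SE 0.15, adjusted p = 0.00146). Totals of expected counts ranged from 16967741 to 28521848 in ESCs and from 30683164 to 35096210 in EpiLCs. Markers of fibroblasts, the cell type of the feeders, were unequal between the ESC libraries. The 14 fibroblast markers summed to 320, 1519 and 115 TPM in ESC replicates 1, 2 and 3, and to between 87.3 and 93.9 TPM in EpiLCs, with Col1a1 at 90.5, 489 and 28.3 TPM in ESCs. Of these markers 6 of 12 tested were called lower in EpiLCs and 0 higher, beside 22.8% and 22.6% of all genes tested. The list did not move as one: Pdgfra was highest in ESC replicate 1, Lum and Fap were at most 0.18 TPM in every library, and Dcn and Thy1 were not called. In bulk RNA, fewer cells of a type and less RNA per cell cannot be told apart, and the part of feeder RNA in the results was not tested; values without ESC replicate 2 are given below.

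Of the proteasome genes among the 57, Psmb8 differed most. Psmb8 encodes the inducible subunit β5i of the immunoproteasome. Its level was 33.7, 14.5 and 16.3 TPM in ESC replicates 1, 2 and 3 and 0.62, 0.70 and 1.83 TPM in EpiLC replicates 1, 2 and 3. The lowest ESC library was several-fold above the highest EpiLC library, and the fitted level was 21.2-fold lower in EpiLCs (log2 fold change -4.41, SE 0.54). Without EpiLC replicate 3, which held the highest EpiLC level, the log2 fold change was -5.06. Psmb10, which encodes β2i, stood at 69.3, 48.3 and 43.9 TPM in ESCs and 18.8, 20.7 and 22.6 TPM in EpiLCs (log2 fold change -1.43, SE 0.18). The groups did not overlap. Psmb9, which encodes the remaining inducible subunit β1i, stood at 8.76, 5.06 and 6.64 TPM in ESCs and 4.79, 4.23 and 5.38 TPM in EpiLCs. These ranges overlapped, and the log2 fold change of -0.56 (SE 0.27) was not called. Without ESC replicate 2, Psmb9 was called lower (-0.73). Psme1 and Psme2 encode the α and β subunits of the PA28 activator, which caps the proteasome. Psme1 was at 212, 134 and 159 TPM in ESCs and 98.2, 107 and 89.3 TPM in EpiLCs (log2 fold change -0.83, SE 0.16). Psme2 was at 218, 139 and 139 TPM in ESCs and 59.6, 61.5 and 56.1 TPM in EpiLCs (log2 fold change -1.51, SE 0.18). By mean they were the most abundant of the 57 genes in ESCs, while in EpiLCs Psme1 ranked first and Psme2 followed the heavy chain H2-K1.

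Each inducible catalytic subunit was also set against the constitutive subunit it replaces, as a ratio of TPM in the same library. Psmb8 amounted to 13.3%, 5.07% and 6.49% of Psmb5 in ESCs and to 0.194%, 0.224% and 0.573% in EpiLCs. Psmb10 amounted to 14.8%, 10.1% and 10.6% of Psmb7 in ESCs and to 3.87%, 4.45% and 4.51% in EpiLCs. Psmb9 amounted to 2.15%, 1.26% and 1.69% of Psmb6 in ESCs and to 1.20%, 1.04% and 1.33% in EpiLCs, so that only this pair overlapped among the catalytic subunits. In both cell states the transcripts of the constitutive subunits were in excess. Psme2 amounted to 55.4% to 86.2% of Psme3, the nuclear activator PA28γ, in ESCs and to 18.6% to 21.2% in EpiLCs, and Psme1 to 53.7% to 83.7% and 29.6% to 36.8%. With 3 libraries against 3, an exact permutation test of a ratio cannot go below p = 0.1, and none was run.

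**Figure D2:**
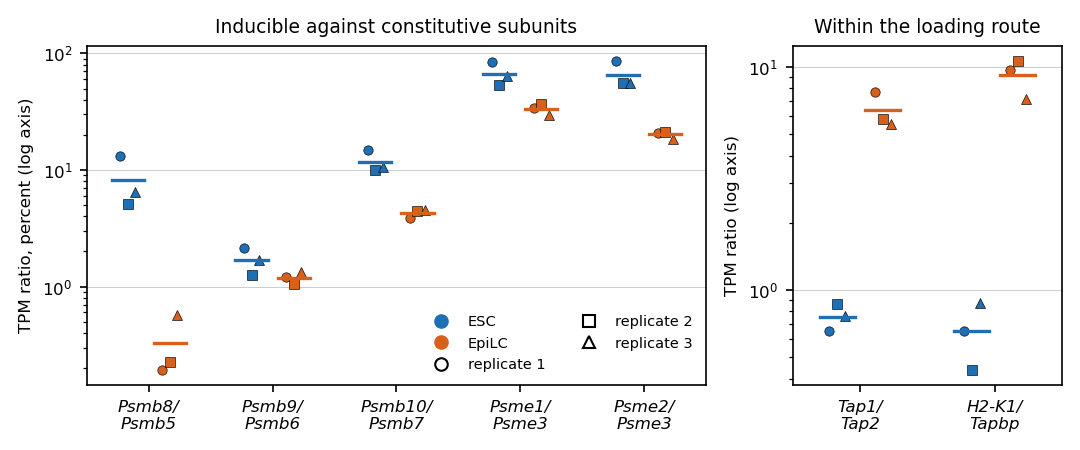
Ratios of TPM within each library (log axes). The left panel shows inducible catalytic subunits as a percent of the constitutive subunits they replace, and Psme1 and Psme2 as a percent of Psme3. The right panel shows Tap1 over Tap2 and H2-K1 over Tapbp. Blue points are ESCs, orange points EpiLCs, symbols give the replicate and lines the group mean; Psmb8/Psmb5 lay between 5.07% and 13.3% in ESCs and between 0.194% and 0.573% in EpiLCs, and Tap1/Tap2 lay below 1 in every ESC library and above 5 in every EpiLC library.

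The constitutive proteasome genes outside the rule had small fold changes. Of 17 genes tested, edgeR called 2 (11.8%) lower, Psmb1 and Psmb3, and 5 (29.4%) higher, Psma1, Psma7, Psmb5, Psme3 and Psme4, beside 22.8% and 22.6% of all genes tested, and the largest of these log2 fold changes was 0.33 (SE 0.08) for Psme4, adjusted p = 0.0118. Psmb5 rose by 0.22 (SE 0.07, adjusted p = 0.0375) and Psme3 by 0.17 (SE 0.05, adjusted p = 0.0306) on the log2 scale. Psmb6 (log2 fold change -0.04, SE 0.05) and Psmb7 (0.04, SE 0.07) were not called. The calls of Psmb1, Psmb3, Psmb5 and Psme3 were lost under the replicate block and when single libraries were left out, and that of Psme4 without EpiLC replicate 1 (0.32). Those of Psmb1 and Psmb3 were also lost with upper-quartile normalization, with no filter, with 10 counts in every library and with limma.

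Transport and loading genes split within a single complex. Tap1 and Tap2 together form the peptide transporter. Tap2 was at 14.2, 7.76 and 7.15 TPM in ESCs and 1.31, 1.90 and 1.46 TPM in EpiLCs (log2 fold change -2.69, SE 0.32). Tap1 was at 9.25, 6.69 and 5.45 TPM in ESCs and 10.1, 11.1 and 8.12 TPM in EpiLCs, where the groups overlapped and the log2 fold change of 0.41 (SE 0.22) was not called. The TPM ratio of Tap1 to Tap2 was 0.651, 0.862 and 0.762 in ESCs and 7.69, 5.85 and 5.56 in EpiLCs. Without ESC replicate 1, Tap1 was called higher (0.62).

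Tapbp, which encodes tapasin, was at 75.6, 56.9 and 37.8 TPM in ESCs and 6.57, 7.27 and 7.76 TPM in EpiLCs, a level 8.14-fold lower (log2 fold change -3.02, SE 0.25). Tapbpl encodes TAPBPR, a tapasin relative that exchanges peptides. It was at 8.97, 7.78 and 5.41 TPM in ESCs and 2.77, 3.75 and 3.63 TPM in EpiLCs (log2 fold change -1.17, SE 0.24). Neither gene overlapped between groups, and the larger difference belonged to tapasin. Erap1 trims peptides to the length that class I molecules hold. It was at 23.3, 13.2 and 10.5 TPM in ESCs and 2.96, 3.13 and 3.56 TPM in EpiLCs (log2 fold change -2.33, SE 0.30). Of 8 general folding and loading genes outside the rule, such as Calr, Canx and Pdia3, edgeR called 0 higher and 2 lower, beside 22.6% and 22.8% of all genes tested. Both were aminopeptidases, Lnpep (log2 fold change -0.58, SE 0.16, adjusted p = 0.0232) and Npepps (-0.45, SE 0.09, adjusted p = 0.00734). The Lnpep call was lost without EpiLC replicate 1 (-0.60).

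**Figure D3:**
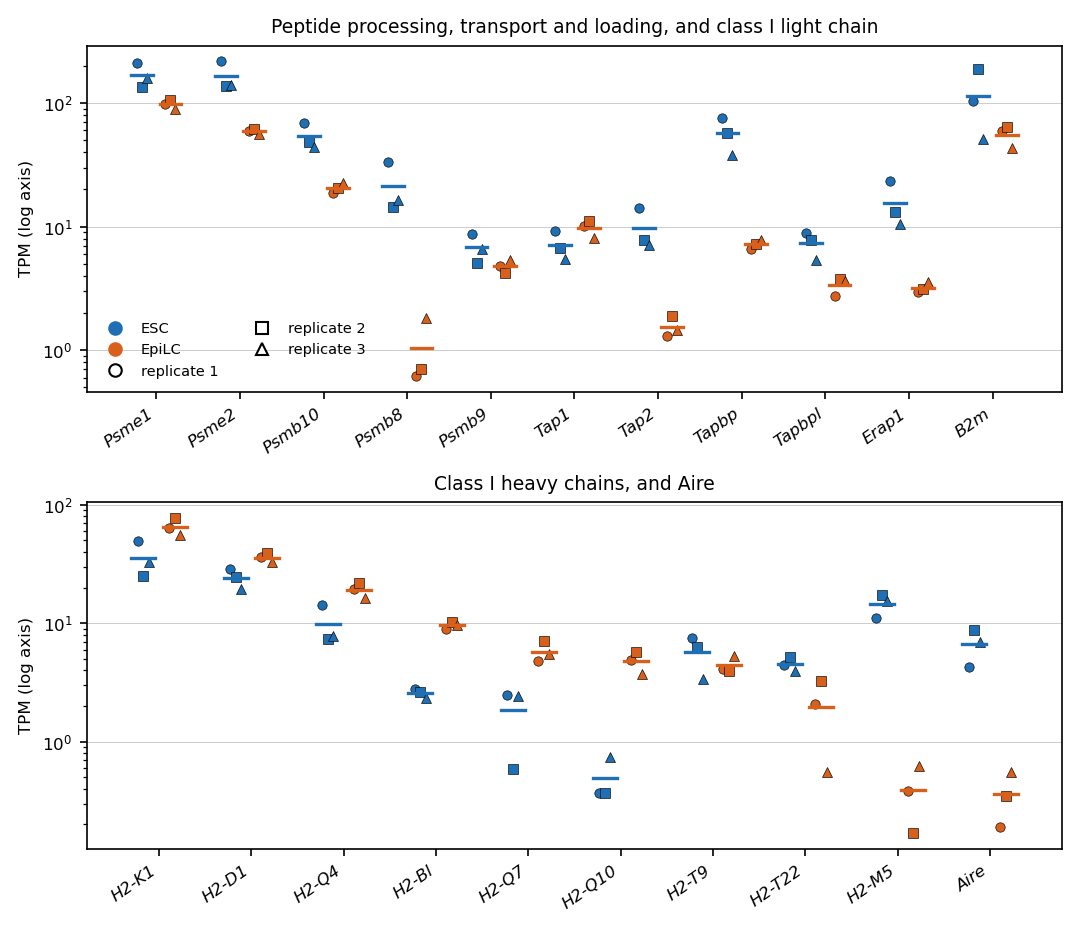
TPM of selected genes in each library (log axes), ESCs in blue and EpiLCs in orange, with symbols for the replicates and lines for the group means. In the upper panel Psmb8, Tap2, Tapbp and Erap1 show the widest gaps between groups and Tap1 and Psmb9 overlap; in the lower panel H2-K1, H2-D1, H2-Q4, H2-Bl, H2-Q7 and H2-Q10 are higher in EpiLCs and H2-M5 and Aire lower.

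The 10 genes of processing, transport and loading were each highest in ESC replicate 1 among the ESC libraries. Of all genes tested, 28.5% had their highest ESC value in that replicate, as had 9 of the 17 tested heavy chains. Of the fibroblast markers, 10 of 11 with a mean of at least 1 TPM in ESCs were highest in ESC replicate 2. Without ESC replicate 1 the 8 called genes kept their calls, with log2 fold changes between -3.95 (Psmb8) and -0.66 (Psme1). Without ESC replicate 2 they also kept them, between -4.63 (Psmb8) and -0.97 (Psme1).

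B2m, which encodes the light chain, varied more between ESC libraries than between groups. It was at 104, 187 and 50.7 TPM in ESCs and 59.4, 63.6 and 42.9 TPM in EpiLCs. The ESC libraries followed the order of their fibroblast markers, highest in replicate 2 and lowest in replicate 3, and ESC replicate 3 lay within the EpiLC range. The log2 fold change of -1.09 (SE 0.43) was not called and was -0.53 without ESC replicate 2, whereas B2m was called lower without ESC replicate 3 (-1.43), with DESeq2 (-1.10) and with the replicate block (-0.93).

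The heavy chains made up 33 of the 57 genes, of which 17 were tested. The classical heavy chain gene H2-K1 was at 49.65, 24.98 and 32.85 TPM in ESCs and 63.5, 77.2 and 55.8 TPM in EpiLCs. Every EpiLC library was above every ESC library, with a log2 fold change of 0.82 (SE 0.24). H2-D1 was at 28.6, 24.5 and 19.5 TPM in ESCs and 35.9, 38.9 and 32.6 TPM in EpiLCs, again without overlap (log2 fold change 0.51, SE 0.14). H2-L was detected in ESC replicate 1 alone (0.61 TPM) and was not tested. The ratio of H2-K1 to Tapbp, heavy chain to loading factor, was 0.657, 0.439 and 0.869 in ESCs and 9.66, 10.6 and 7.19 in EpiLCs.

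The nonclassical genes of the Q region, which lie beside H2-D1, had low levels, and the 7 tested were each called higher, beside 22.6% of all genes tested. Nothing is read from that count, since H2-Q1, H2-Q2, H2-Q5, H2-Q6 and H2-Q10 had few counts in ESCs and passed the filter through the EpiLC libraries in which they were higher. With at least 10 counts required in every library, H2-Q4 was the only Q gene left to test. H2-Q4 was the most abundant, at 14.3, 7.40 and 7.84 TPM in ESCs and 19.3, 21.8 and 16.5 TPM in EpiLCs (log2 fold change 0.91, SE 0.26). H2-Q10, a secreted class I molecule known from liver, was at 0.37, 0.37 and 0.74 TPM in ESCs and 4.93, 5.77 and 3.70 TPM in EpiLCs, 9.28-fold higher. H2-Q2 was at 0.64, 0 and 0.39 TPM in ESCs and 4.97, 4.81 and 2.26 TPM in EpiLCs, and H2-Q1 at 0.05 to 0.14 TPM in ESCs and 0.99 to 1.78 TPM in EpiLCs. These 3 genes had the largest log2 fold changes of the higher group, between 3.21 and 3.89, and H2-Q2 moved from 3.42 to 4.11 without ESC replicate 1. H2-Q7 encodes a Qa-2 antigen, a lipid-anchored class I molecule of early embryos, and was at 2.49, 0.59 and 2.44 TPM in ESCs and 4.79, 7.02 and 5.48 TPM in EpiLCs (log2 fold change 1.49, SE 0.47). H2-Q6 (log2 fold change 1.74, SE 0.46) and H2-Q5 (2.23, SE 0.56), which RefSeq lists as a transcribed pseudogene, were called as well. H2-Q9 was not tested, and H2-Q8 was detected in EpiLC replicate 2 alone (3.42 TPM).

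Heavy chain genes share reads. RSEM divides reads between genes that they fit equally well, 25 of the 57 genes had a fractional count in at least 1 library, and the split among H2-K1, H2-D1 and the Q genes is uncertain. Summed counts do not depend on that split among the genes summed, whereas summed TPM do in part, since the genes differ in length. Summed over the 9 Q genes, the level was 19.5, 9.10 and 12.9 TPM in ESCs and 43.6, 48.0 and 33.2 TPM in EpiLCs (log2 fold change of summed counts 1.41, SE 0.27). Summed over the 33 heavy chains it was 128, 94.1 and 94.0 TPM in ESCs and 163, 187 and 142 TPM in EpiLCs (log2 fold change 0.59, SE 0.15, or 1.51-fold). Groups did not overlap in either sum. The sums are made of the values by which the genes were chosen and are a description. The calls of H2-K1, H2-D1, H2-Q4, H2-Q5, H2-Q6 and H2-Q7 were each lost when at least 1 EpiLC library was left out, with every direction kept. Those of H2-K1 and H2-Q4 were also lost without ESC replicate 3, those of H2-Q6 and H2-Q7 without ESC replicate 1, and that of H2-Q7 with the replicate block. Without EpiLC replicates 1, 2 and 3 in turn, 5, 6 and 7 genes were called higher in place of 11.

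The T and M regions did not share a direction. H2-Bl, listed by RefSeq as a transcribed pseudogene, was at 2.80, 2.63 and 2.33 TPM in ESCs and 8.97, 10.2 and 9.70 TPM in EpiLCs (log2 fold change 1.85, SE 0.19). H2-T-ps was higher as well, at 0.25 to 0.41 TPM and 1.01 to 1.36 TPM (log2 fold change 1.79, SE 0.35). It had few counts in ESC replicates 1, 2 and 3 (5.06, 4.04 and 4.19) and passed the filter through the EpiLC libraries in which it was higher. With at least 10 counts required in every library it was not tested. H2-T22, a class I molecule recognised by some γδ T cells, was at 4.45, 5.15 and 3.92 TPM in ESCs and 2.09, 3.25 and 0.55 TPM in EpiLCs. Although these groups did not overlap, its log2 fold change of -1.22 (SE 0.51) was not called, and it was called with the replicate block (-1.42). Its near copy H2-T10 was called lower at levels below 0.4 TPM in every library (log2 fold change -2.45, SE 0.49). H2-T9 was at 7.45, 6.34 and 3.39 TPM in ESCs and 4.14, 3.92 and 5.24 TPM in EpiLCs, overlapping and not called, though it was called lower without ESC replicate 3 (-0.67). H2-T23, which encodes Qa-1, was at 0.60, 1.15 and 0.19 TPM in ESCs and 0.10, 0.16 and 0.31 TPM in EpiLCs and was not tested. H2-K2, a transcribed pseudogene in RefSeq, was at 0.62 to 1.43 TPM and 1.87 to 2.95 TPM and was not called (log2 fold change 1.02, SE 0.38), except with limma (1.10 and 0.69) and without ESC replicate 3 (1.37).

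H2-M5 differed most of the 57 genes. This M region gene was at 11.02, 17.34 and 15.43 TPM in ESCs and 0.38, 0.17 and 0.62 TPM in EpiLCs, 38.4-fold lower (log2 fold change -5.26, SE 0.43). Every ESC library was far above every EpiLC library. Its M region neighbour H2-M3, which presents N-formylated peptides, was at 1.00 to 1.33 TPM in ESCs and 0.70 to 1.01 TPM in EpiLCs and was not called (log2 fold change -0.47, SE 0.28). The other 10 genes of the M region were not tested, 7 of them with 0 counts in every library. The order of the ESC libraries for H2-M5, highest in replicate 2 and lowest in replicate 1, was not that of the processing genes. Without ESC replicate 2 its log2 fold change was -5.13.

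Along chromosome 17, 45 of the genes lie between positions 33919478 and 37483554 of GRCm38. Psmb9, Tap1, Psmb8 and Tap2 are adjacent among them, within 34.3 kb (34182030 to 34216321). Their log2 fold changes in this order were -0.56, 0.41, -4.41 and -2.69. Psmb9 and Tap1 are transcribed away from each other and share 275 bases of the 300 bases of their promoter windows, with the same Y box match. Neither was called, whereas both genes beyond them were called lower. The Q genes given a position lie beside H2-D1.

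**Figure D4:**
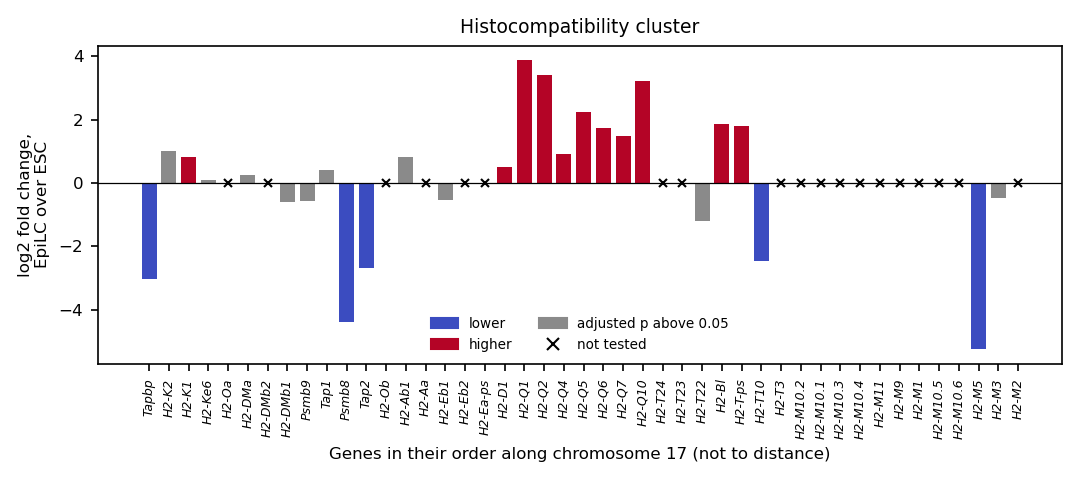
Log2 fold change (EpiLC over ESC) of the 45 genes placed on chromosome 17, in their order along the chromosome and not to distance. Blue bars are genes called lower, red bars genes called higher, grey bars genes not called and crosses genes not tested; Psmb8 and Tap2 stand beside Tap1 and Psmb9, and H2-D1 and the Q genes stand to their right.

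MHC class II genes, which present extracellular peptides on professional antigen-presenting cells, had low levels. Of 10 class II and class II loading genes, 4 were tested and 0 called by edgeR, beside 22.8% lower and 22.6% higher of all genes tested, a number too small to read a share from. H2-Ab1, a class II β chain, was at 0.84 to 1.04 TPM in ESCs and 1.21 to 2.27 TPM in EpiLCs, without overlap but not called (log2 fold change 0.82, SE 0.33). H2-DMa, a subunit of the peptide exchanger H2-DM, was at 1.47 to 2.26 TPM and 2.14 to 2.62 TPM. H2-Eb1 and H2-DMb1 had group means below 1 TPM in both states. H2-Aa, the partner of H2-Ab1, was at most 0.12 TPM, and Ciita, the transactivator of class II genes, at most 0.07 TPM in every library. Outside the rule, Cd74, which encodes the invariant chain of class II, was lower in EpiLCs at 5.83, 3.80 and 3.37 TPM against 1.66, 2.39 and 0.71 TPM (log2 fold change -1.51, SE 0.44, adjusted p = 0.0298 with edgeR). That call was lost without ESC replicate 1 (-1.27) and without EpiLC replicates 1 (-1.53) and 3 (-1.16). Ctsl, a lysosomal cathepsin, was lower as well (log2 fold change -0.86, SE 0.11, adjusted p = 0.00119). Of 11 leukocyte markers, Ptprc was at most 0.12 TPM and Adgre1 at 0 in every library, and the whole list, of which 2 were called lower and 2 higher among 5 tested, summed to 14.6 to 19.0 TPM in ESCs and 9.11 to 10.2 TPM in EpiLCs, mostly from Cd68.

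Aire drives the display of tissue-restricted genes in the thymus. It was at 4.26, 8.69 and 7.0 TPM in ESCs and 0.19, 0.35 and 0.55 TPM in EpiLCs, 20.2-fold lower (log2 fold change -4.34, SE 0.46). The groups were far apart, and the ESC libraries had the same order as for H2-M5. Of 5 thymic epithelium markers, Foxn1 was at most 0.12 TPM and Psmb11 at most 0.08 TPM, and the list summed to 3.99 to 4.70 TPM in ESCs and 7.04 to 8.05 TPM in EpiLCs. Of the 2 tested, Prss16 was called higher in EpiLCs and Ccl25 was not called. H2-Ke6 carries an H2 symbol for its place in the complex but encodes a dehydrogenase, and was at 9.29 to 11.02 TPM in ESCs and 9.96 to 12.3 TPM in EpiLCs (log2 fold change 0.10, SE 0.18, not called).

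The regulators of these genes, which the rule did not use, were tested in the same fit over all genes. Of 21, edgeR called 6 lower (28.6%) and 5 higher (23.8%), near the shares of 22.8% and 22.6% over all genes tested, so the counts set the regulators apart in neither direction. Irf1, an interferon-induced activator of class I and immunoproteasome genes, was at 69.3, 33.8 and 42.1 TPM in ESCs and 11.5, 12.9 and 13.2 TPM in EpiLCs (log2 fold change -1.999, SE 0.26, adjusted p = 0.00124). It was lower in every EpiLC library than in every ESC library. Irf1 shared with the processing genes its highest value in ESC replicate 1, and its log2 fold change was -1.67 without that library.

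Irf2, a relative of Irf1 that binds the same element, was lower (log2 fold change -1.99, SE 0.40, adjusted p = 0.00699). Irf9, a DNA-binding factor of the interferon response, was lower by a smaller margin (-0.88, SE 0.19, adjusted p = 0.0103). Relb, an NF-κB subunit, was at 20.6, 19.3 and 17.3 TPM in ESCs and 5.25, 5.41 and 5.90 TPM in EpiLCs (log2 fold change -1.84, SE 0.13, adjusted p = 1.33e-04). Ifngr2, a chain of the interferon-γ receptor, was at 8.03, 18.7 and 6.40 TPM in ESCs and 4.11 to 4.19 TPM in EpiLCs (log2 fold change -1.45, SE 0.40, adjusted p = 0.0227). Its ESC value was highest in the library with the highest fibroblast marker sum. Without that library, ESC replicate 2, its log2 fold change was -0.85, and the call was lost without any one of the EpiLC libraries (-1.45 to -1.44).

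Of the 7 listed factors that bind X and Y boxes, 4 were called higher and 0 lower, beside 22.6% and 22.8% of all genes tested, and Rfxank, Nfya and Nfyc were not called. Rfxap (log2 fold change 0.94, SE 0.11, adjusted p = 9.60e-04), Nfyb (0.67, SE 0.11, adjusted p = 0.00385) and Creb1 (0.79, SE 0.11, adjusted p = 0.0019), which binds X2, rose in EpiLCs. Rfx5, the large subunit of the complex, was at 7.79, 7.0 and 8.59 TPM in ESCs and 9.81, 11.5 and 9.99 TPM in EpiLCs (log2 fold change 0.37, SE 0.12, adjusted p = 0.0438). The Rfx5 call was lost under the replicate block (0.37) and without ESC replicates 1 (0.34) or 2 (0.29) or any EpiLC replicate (0.31 to 0.41). Nlrc5 itself was at 0.74, 0.29 and 0.38 TPM in ESCs and 0.71, 1.02 and 0.77 TPM in EpiLCs, overlapping, and was not called (log2 fold change 0.77, SE 0.37, adjusted p = 0.129), although it was called higher without ESC replicate 1 (1.23). Irf8, a regulator known from blood cells, rose, with ESC libraries between 0.67 and 1.44 TPM and EpiLC libraries between 2.47 and 3.15 TPM (log2 fold change 1.19, SE 0.31, adjusted p = 0.0185), a call lost without EpiLC replicates 1 (1.21) or 2 (1.11).

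**Figure D5:**
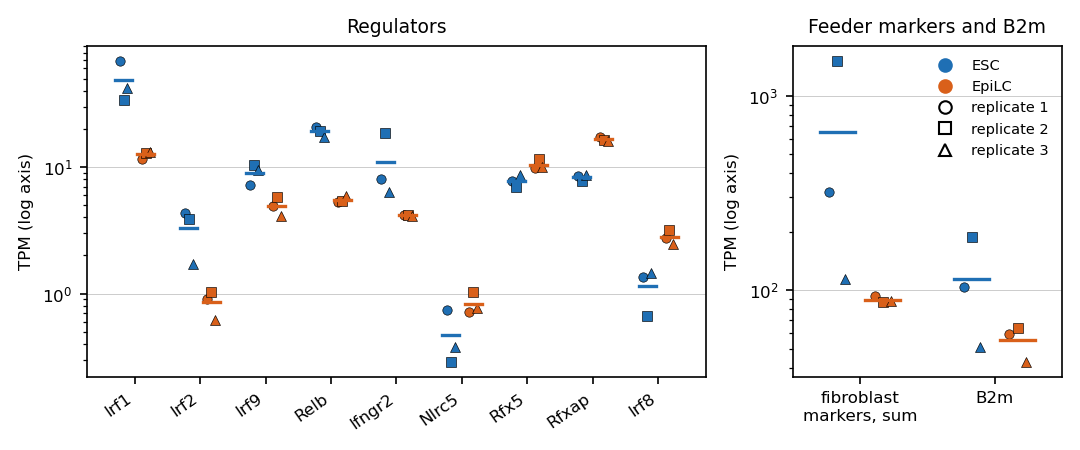
TPM in each library (log axes) of regulators on the left, and of the 14 fibroblast markers summed and of B2m on the right, with ESCs in blue, EpiLCs in orange, symbols for replicates and lines for group means. Irf1, Irf2, Irf9 and Relb are lower in each EpiLC library than in each ESC library, Rfxap is higher, and both fibroblast markers and B2m are highest in ESC replicate 2.

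Class I-like genes encoded outside the complex were also examined. Of 10 tested, edgeR called 2 lower and 0 higher, beside 22.8% and 22.6% of all genes tested. Mr1 presents vitamin metabolites to T cells and was at 0.87, 1.29 and 0.64 TPM in ESCs and 0.10, 0.14 and 0.03 TPM in EpiLCs (log2 fold change -3.36, SE 0.50, adjusted p = 0.00227). Fcgrt encodes the heavy chain of the neonatal Fc receptor, which pairs with β2-microglobulin. It was at 2.78, 4.52 and 3.01 TPM in ESCs and 0.18, 0.45 and 0.16 TPM in EpiLCs (log2 fold change -3.72, SE 0.44, adjusted p = 8.58e-04), and without EpiLC replicate 2 the log2 fold change was -4.31. Neither gene overlapped between groups. Both had few counts in EpiLC replicates 1, 2 and 3, with 4, 5 and 1 for Mr1 and 5, 12 and 4 for Fcgrt. They passed the filter through the ESC libraries in which they were higher and were not tested with 10 counts in every library. Their calls are therefore a description. Over all 68 listed pathway genes outside the rule, 59 were tested, 14 called lower (23.7%) and 10 higher (16.9%), beside 22.8% and 22.6% of all genes tested.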

How the data were processed

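RNA from 3 ESC and 3 EpiLC cultures was sequenced by the authors as strand-specific single-end reads of 76 nt, and per the labels cutadapt 1.16, STAR 2.5.2a, RSEM 1.3.0 and mm10 were used. The authors deposited RSEM expected counts per gene, in which reads that fit several genes are divided, and TPM, which RSEM corrects for transcript length and which sum to the same total in every library. Between 4.27% and 4.65% of the expected counts per library were not whole; they were rounded to whole numbers. The smallest abundance 3 counts can show was 0.0855 to 0.177 CPM, which covers counting error only.

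Genes were filtered with edgeR's filterByExpr (14468 of 24736 kept), scaled by TMM (factors 0.979 to 1.02) and tested with edgeR 4.0.16 (quasi-likelihood, R 4.3.3) by group, with Benjamini-Hochberg adjustment over all genes tested. A standard error is the absolute log2 fold change divided by the square root of F. In simulated data for 14468 genes, 89% of genes changed 4-fold and 56% of those changed 2-fold were called (145 of 200 in all), with 15 false calls. The simulation changed 200 genes only and gave both groups the same dispersion. In the data 22.8% of genes were called lower and 22.6% higher, so the simulated shares may not carry over. DESeq2 1.42.0, limma 3.58.1 on log2(TPM + 1) and log2(TPM + 0.1), other filters and normalization, a replicate block and leaving out each library were alternatives; the sums over heavy chains were chosen after seeing the data.

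The genes and lists were chosen with earlier results of these data known. Genes with a mean of at least 1 TPM in either group are named with values, and pathway genes where called or paired with a chosen gene. A called regulator is not reported here. The study's culture methods give a longer EpiLC differentiation than the labels, whose 48 h is used here. Positions and promoter windows are from RefSeq (GRCm38.p6), which matched 55 of the 57 genes; H2-L and H2-T9 were unmatched, and H2-Q8 and H2-Q9 are given no position.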

Additional observations from a re-analysis of the deposited data

How the results depend on the processing

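No direction of the 34 tested genes reversed in any alternative. The calls of the 8 lower processing genes, H2-M5, H2-T10 and Aire were kept in the fits that tested them, as a description; H2-M5, H2-T10 and Aire had few counts in EpiLCs, passed the filter through the ESC libraries and were not tested with 10 counts in every library. Limma on log2(TPM + 1), which understates changes of low genes, gave smaller log2 fold changes for Aire (-2.45), H2-M5 (-3.48), Psmb8 (-3.41), Tap2 (-2.01), H2-Q10 (1.95), H2-Q2 (1.88), H2-Q6 (1.11), H2-T-ps (0.71), Irf2 (-1.16) and Fcgrt (-1.80). The number of genes called lower was 8 to 14 in the alternatives. With at least 10 counts in every library, 4 were called higher in place of 11; that filter removes genes near 0 in 1 group. Leaving out 1 library gave 5 to 11 genes higher, 9 to 16 pathway genes lower and 6 to 14 higher, and 2100 to 3609 of all genes lower and 2144 to 3572 higher. Psmb6 changed sign with limma (0.0108 at both pseudocounts) and Psmb7 without ESC replicate 3; with 1 library left out Psmb7 lay between -0.0031 and 0.087. The main test did not treat replicate numbers as pairs. Deviations from the group means correlated at 0.0067, 0.186 and 0.171 between the ESC and EpiLC libraries numbered 1, 2 and 3. Libraries of unlike number were not compared, so these values do not decide whether the numbers mark pairs. With the replicate block, 13 genes were lower and 10 higher, with a median log2 fold change of -0.42, and 15 pathway genes were lower and 7 higher. Depth limits genes below 1 TPM, where few reads decide a value.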
